A study of Mus musculus with 66 samples.

Results

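The dark hours were compared with the light hours in the nucleus accumbens (NAcc), the ventral part of the striatum, of iMSN-D2RKO mice that had received 1 injection of cocaine. The 9 libraries of ZT15, ZT19 and ZT23 were set against the 6 libraries of ZT7 and ZT11, 15 of the 66 distinct libraries of the series. ZT, zeitgeber time, counts the hours since the lights came on in a cycle of 12 h of light and 12 h of dark. Libraries of ZT3 were left out because those mice had received no injection. Of 24138 genes in the table, 13877 reached an FPKM of at least 1 in at least 1 of the 15 libraries, and all of these were tested. FPKM is the number of sequenced fragments scaled to the length of the transcript and to the fragments mapped in the library.

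iMSN-D2RKO mice carry floxed alleles of Drd2, the gene of the dopamine D2 receptor, and a Cre recombinase driven by the D1R promoter, which acts in the precursors of medium spiny neurons and removes the receptor from the indirect pathway neurons (iMSNs). All mice were males on a C57BL/6J background, 3 to 5 months old. Cocaine was given intraperitoneally at 20 mg/kg at ZT3, so that ZT7, ZT11, ZT15, ZT19 and ZT23 lay 4, 8, 12, 16 and 20 h after the injection. Time of day and time since the injection therefore cannot be told apart within this series. The 3 comparison series, of 15 libraries each over the same time points, were iMSN-D2RKO mice given saline and WT mice given cocaine or saline. Each group held 3 libraries, and the labels do not say how many animals went into a library. The p-values and SE of genes thus measure the spread between libraries of the same group and time point. They do not measure the spread between the time points of the dark or of the light.

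Medium spiny neurons are the main cell type of the NAcc, and dopamine acts on those of the direct pathway through D1 receptors and on those of the indirect pathway through D2 receptors. In nearly every cell the circadian clock is a loop of transcription. CLOCK and ARNTL (BMAL1) bind E-boxes and drive the Per, Cry, Nr1d and Ciart genes, whose products repress CLOCK and ARNTL or the Arntl gene. Mice are awake and feed mostly in the dark. Heat shock proteins and the chaperones of the endoplasmic reticulum (ER) help proteins to fold, the former being induced by heat and the latter by unfolded proteins in the ER. Immediate early genes such as Nr4a1 and Egr2 are transcribed within minutes of neuronal activity.

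Before the results, libraries that stand apart are described. Over all 66 libraries, the leading axis of the differences between replicates took up 43.6% of their variance. Along it 3 of the 15 libraries stood apart, namely ZT7 replicate 2, ZT15 replicate 3 and ZT23 replicate 1. They were also the 3 with the lowest relative depth, as estimated from the lowest values of 1439 entries that few libraries listed (about 0.66, against up to 1.19 in the other libraries). Read numbers are unknown. Results are given for all 15 libraries and again for the 12 others. Since the 3 were picked for their distance from their replicates, leaving them out narrows the spread by construction. Total FPKM ran from 376165 to 404584 in the light and from 383376 to 411110 in the dark (exact two-sided permutation test, p = 0.148). Between 12790 and 13015 genes reached 1 FPKM in the light and between 12643 and 12882 in the dark (exact permutation p = 0.0619). Relative depth ran from 0.663 to 1.19 and from 0.662 to 1.12 (exact permutation p = 0.370).

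The tissue label was checked against genes of spiny neurons. Ppp1r1b (DARPP-32), the dopamine-regulated phosphatase inhibitor of these neurons, lay between 874 and 1557 FPKM in the 15 libraries, Penk between 1211 and 3012 and Drd1 between 75.4 and 163. Drd2 lay between 81.1 and 299.7 FPKM with a median of 118, beside a median of 145 in WT cocaine, 110 in iMSN-D2RKO saline and 124 in WT saline. FPKM of the whole gene do not check the deletion, since it spares other cells and the rest of the transcript. The 3 highest Drd2 values, 229, 259 and 299.7, were those of the 3 set-apart libraries.

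In the dark, 10 of 13877 genes differed from the light at an adjusted p under 0.05, which is 0.0721% of the genes tested (limma on log2(FPKM + 1), Benjamini-Hochberg over all genes). The 6 higher genes were Hspa1b, Hspa5, Xbp1, 1500004A13Rik, Rbm28 and Hist1h2be. The 4 lower genes were Ciart, Gpr25, Slc7a5 and Pfn4. A difference is the mean of the 3 dark time points minus the mean of the 2 light time points, on the log2(FPKM + 1) scale, which understates changes of genes with low FPKM. At an unadjusted p under 0.05 there were 1067 genes (7.69%), 634 higher (4.57%) and 433 lower (3.12%), and 55.7% of all genes had a difference above 0 and 44.3% one below 0. The median over all genes was 0.02. In a fit of 2 groups of 9 and 6 libraries, without a mean per time point, 1 gene passed. Without the 3 set-apart libraries, 272 genes passed (1.96%), 170 higher (1.23%) and 102 lower (0.735%). All 272 had the same sign with 15 libraries, and the 10 genes were among them. The count was small enough to turn on single libraries, with 23 genes passing without ZT7 replicate 2, 9 without ZT15 replicate 3, 8 without ZT23 replicate 1 and 0 to 2 without any other library, and 0 passed without ZT11, ZT15 or ZT19 as a whole.

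**Figure D1:**
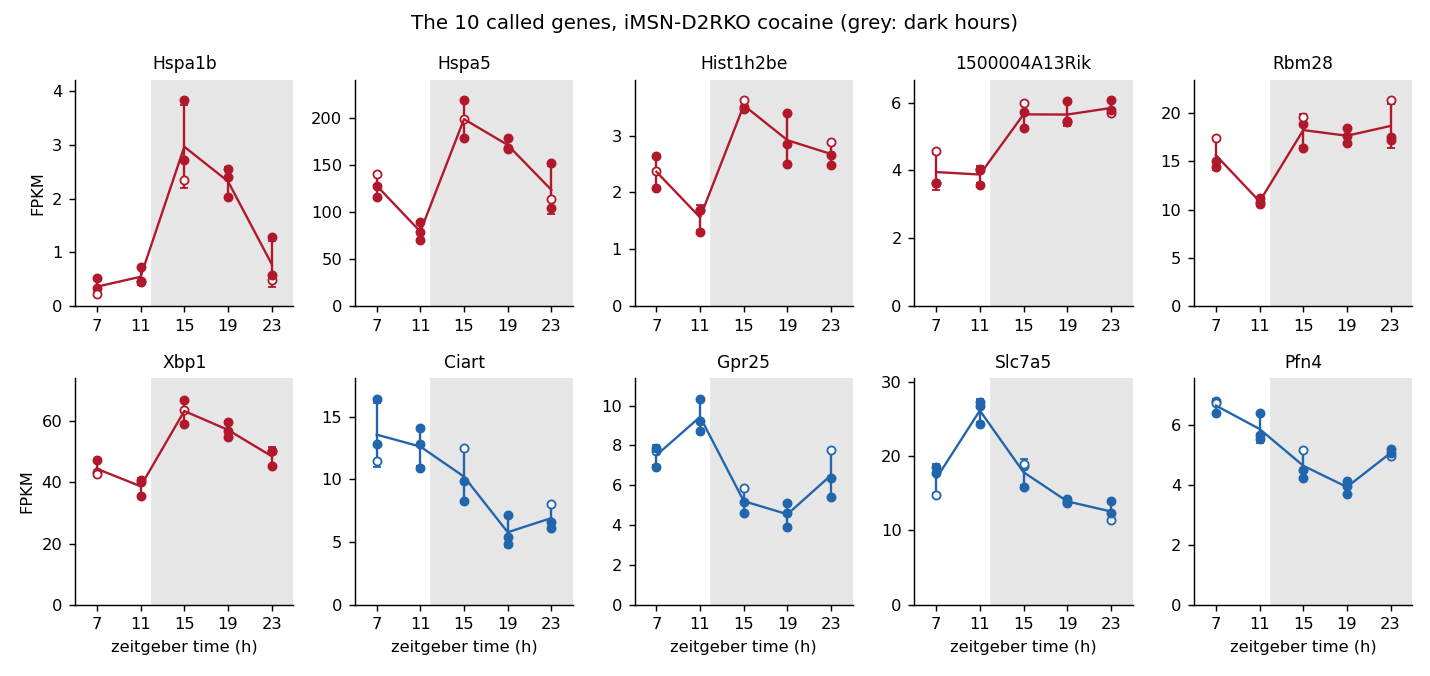
FPKM of the genes called in the dark against the light, by library, over zeitgeber time in hours, with dark hours shaded. Each point is 1 library, lines join the means of the time points with SD bars (n = 3) and open symbols mark the 3 set-apart libraries. Hspa1b is above 2 FPKM in all 6 libraries of ZT15 and ZT19 and at or below 0.724 in all 6 light libraries, while Ciart is at or above 10.9 in the light and at or below 8.01 at ZT19 and ZT23.

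Hspa1b, which encodes an inducible cytosolic HSP70 (chr17:34956436-34959238, minus strand, mm10), had the largest difference of the 10. It lay at 0.33, 0.225 and 0.533 FPKM at ZT7 and at 0.474, 0.724 and 0.443 at ZT11. In the dark it was at 3.83, 2.72 and 2.35 FPKM at ZT15, at 2.55, 2.40 and 2.03 at ZT19 and at 0.490, 0.585 and 1.28 at ZT23. The 6 libraries of ZT15 and ZT19 were all above the light libraries, whereas the range at ZT23 overlapped with them. The difference was 0.97 ± 0.12 (SE, n = 9 and 6, adjusted p = 0.0207). By time point it was 1.44 at ZT15 (adjusted p = 0.00693), 1.20 at ZT19 (adjusted p = 0.0486) and 0.28 at ZT23. No light library reached 1 FPKM, so Hspa1b met the filter for testing only through dark libraries, where it was higher. Its level was low, and Hspa1a, a near-identical copy, shares reads with it. For Hspa1a the difference was 0.51 with an adjusted p of 0.191, so the split between the copies is uncertain.

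Hspa5 encodes BiP, the HSP70 of the ER (chr2:34771970-34777547, plus strand). Its FPKM were 116, 141 and 127 at ZT7 and 89.2, 78.6 and 70.0 at ZT11, against 219, 179 and 199 at ZT15, 179, 168 and 167 at ZT19 and 114, 104 and 153 at ZT23. All libraries of ZT15 and ZT19 were above the 6 light libraries, and those of ZT23 overlapped with them. The gene rose by 0.67 ± 0.10 (SE, adjusted p = 0.0393), by 0.97 at ZT15 (adjusted p = 0.0314) and with 0.77 at ZT19 (adjusted p = 0.0902) and 0.28 at ZT23. Xbp1, the transcription factor whose spliced form induces ER chaperones (chr11:5520659-5525893, plus strand), lay at 43.3, 42.8 and 47.3 FPKM at ZT7 and at 40.1, 40.7 and 35.5 at ZT11. It reached 67.1, 59.3 and 63.7 at ZT15, 59.6, 57.0 and 55.0 at ZT19 and 50.2, 45.2 and 50.4 at ZT23. Of the 9 dark libraries, only ZT23 replicate 2 was not above all 6 light libraries. The difference was 0.43 ± 0.06 (SE, adjusted p = 0.0393).

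The 3 other higher genes were in none of the gene lists. 1500004A13Rik, a processed transcript (chr3:88782943-88832547, minus strand), was at 3.64, 4.58 and 3.64 FPKM at ZT7 and 3.58, 4.01 and 4.04 at ZT11. It was at 5.25, 5.73 and 5.98 at ZT15, 5.44, 5.46 and 6.04 at ZT19 and 5.69, 5.77 and 6.07 at ZT23. All 9 dark libraries were above all 6 light libraries (0.45 ± 0.06, SE, adjusted p = 0.0393). Rbm28, an RNA-binding protein of the nucleolus (chr6:29123576-29165006, minus strand), lay between 10.5 and 17.4 FPKM in the light, with ZT11 at 10.5 to 11.1, and between 16.3 and 21.3 in the dark (0.45 ± 0.07, SE, adjusted p = 0.043). Hist1h2be, a histone H2B gene on chr13, lay between 1.31 and 2.64 FPKM in the light and between 2.48 and 3.62 in the dark (0.46 ± 0.07, SE, adjusted p = 0.043). Histone genes resemble each other closely and most of their transcripts lack a poly(A) tail, so this value is uncertain.

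Ciart, a repressor of CLOCK and ARNTL (chr3:95878503-95882251, minus strand), fell most. It lay at 16.4, 11.5 and 12.8 FPKM at ZT7 and at 12.8, 14.1 and 10.9 at ZT11. In the dark it was at 9.90, 8.26 and 12.5 at ZT15, at 4.85, 5.37 and 7.14 at ZT19 and at 8.01, 6.62 and 6.13 at ZT23. All dark libraries but ZT15 replicate 3 were below the lowest light library. It fell by 0.74 ± 0.12 on the log2 scale (SE, adjusted p = 0.043). The difference was -0.34 at ZT15, -1.06 at ZT19 (adjusted p = 0.0486) and -0.83 at ZT23, the last of which did not pass on its own.

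Slc7a5 encodes LAT1, which carries large neutral amino acids (chr8:121881150-121907694, minus strand). Its FPKM were 17.7, 14.7 and 18.5 at ZT7 and 24.4, 26.7 and 27.3 at ZT11, and fell to between 15.8 and 19.003 at ZT15, 13.7 and 14.2 at ZT19 and 11.4 and 13.9 at ZT23 (-0.50 ± 0.07, SE, adjusted p = 0.0393). ZT11 was the high point and ZT15 overlapped with ZT7. Gpr25, an orphan G protein-coupled receptor (chr1:136259797-136260873, minus strand), lay between 6.94 and 10.3 FPKM in the light and between 3.89 and 7.78 in the dark (-0.57 ± 0.09, SE, adjusted p = 0.043), with 1 library of ZT23 inside the light range. Pfn4, a member of the profilin family (chr12:4769022-4778813, plus strand), was at 6.82, 6.75 and 6.41 FPKM at ZT7 and 5.68, 6.42 and 5.54 at ZT11. It was at 4.25, 4.52 and 5.18 at ZT15, 3.96, 4.14 and 3.71 at ZT19 and 4.97, 5.196 and 5.07 at ZT23. All 9 dark libraries were below all 6 light libraries (-0.39 ± 0.06, SE, adjusted p = 0.043), and ZT19 passed on its own (-0.56, adjusted p = 0.0486).

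Promoters of 3 of these genes are shown because the factors that act on them, CLOCK and ARNTL, the unfolded protein response and heat shock factors, are known to drive the groups that these genes belong to. The 250 bases before the start of each gene were taken from RefSeq (GRCm38.p6), 5′ to 3′ on the strand of the gene. The RefSeq start is the GENCODE start for Hspa1b, but lies 23 bases downstream of it for Ciart and 120 bases downstream for Hspa5, so that these 2 windows reach into the gene as positioned above. Capitals mark, in Ciart (chr3:95882229-95882478, minus strand), 3 E-boxes CACGTG, in Hspa5 (chr2:34771840-34772089, plus strand) an ER stress element and in Hspa1b (chr17:34959239-34959488, minus strand) a heat shock element core GAANNTTC.
Ciart: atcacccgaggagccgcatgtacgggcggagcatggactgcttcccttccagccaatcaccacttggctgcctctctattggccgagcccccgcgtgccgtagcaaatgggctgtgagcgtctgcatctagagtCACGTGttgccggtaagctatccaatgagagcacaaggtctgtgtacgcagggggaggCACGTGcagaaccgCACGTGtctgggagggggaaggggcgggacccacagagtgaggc
Hspa5: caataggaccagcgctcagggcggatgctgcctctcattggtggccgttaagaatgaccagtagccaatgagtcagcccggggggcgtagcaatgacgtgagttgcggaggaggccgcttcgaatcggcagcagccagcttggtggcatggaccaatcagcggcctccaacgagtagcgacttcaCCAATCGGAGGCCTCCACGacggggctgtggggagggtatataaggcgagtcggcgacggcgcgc
Hspa1b: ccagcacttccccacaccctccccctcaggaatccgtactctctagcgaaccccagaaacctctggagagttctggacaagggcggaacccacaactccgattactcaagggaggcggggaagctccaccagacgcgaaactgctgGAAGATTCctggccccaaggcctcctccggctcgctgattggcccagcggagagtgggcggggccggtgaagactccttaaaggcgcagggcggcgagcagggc
The E-boxes of Ciart begin 116, 58 and 44 bases before the RefSeq start, and the ER stress element of Hspa5 runs from 65 to 47 and the core of Hspa1b from 104 to 97 bases before it. Motifs were searched on both strands, and the search for the ER stress element (CCAAT, 9 bases, CCACG) was added after the promoters had been seen. An E-box was held by 6.86% of 27025 genes with a promoter and by 5 of 17 clock genes with one, namely Bhlhe41, Ciart, Cry1, Per1 and Tef. GAANNTTC was held by 7.73% of all these genes and by 8 of 23 cytosolic and mitochondrial chaperone genes, Dnaja4, Fkbp4, Hspa1a, Hspa1b and Hspd1 among them. The ER stress element was held by 35 of the 27025 genes (0.130%) and by 7 of 15 genes of the ER list, which were Calr, Canx, Creld2, Dnajc3, Hsp90b1, Hspa5 and Pdia6. Among the 10339 tested genes with a promoter the shares were 9.90%, 6.00% and 0.145%. These matches describe letters in the window and were not tested. Promoters were available for 5 of the 6 higher and 3 of the 4 lower genes called, but not for Hist1h2be and Slc7a5. A D-box (TTATGTAA) or CRE (TGACGTCA) occurred in none of the promoters available.

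The genes of cytosolic and mitochondrial chaperones and their cofactors all lay higher in the dark. Of 30 tested members, 30 had a difference above 0 and 20 an unadjusted p under 0.05, all higher, beside 55.7% and 4.57% of all genes, and the median was 0.34. Only Hspa1b passed the adjusted threshold. Next by p was Ahsa2, an HSP90 cochaperone gene (0.50, adjusted p = 0.0633). Dnaja4, an HSP40, was at 11.4 to 13.8 FPKM in the light and at 14.4 to 19.7 in the dark, with no overlap (0.40, adjusted p = 0.0943). Hsph1, the HSP110 that recycles nucleotide on HSP70, lay at 109, 156 and 110 FPKM at ZT7, 93.8, 98.3 and 79.1 at ZT11, and between 126 and 177 in the dark (0.50 ± 0.10, SE, adjusted p = 0.0959). The high light value was that of ZT7 replicate 2, 1 of the 3 set-apart libraries. Without the 3, 15 of the 30 genes passed, all higher, with a median of 0.34, beside 1.23% of all genes called higher in that fit. Among them were Chordc1 (0.55, adjusted p = 0.00441), Fkbp4 (0.51, adjusted p = 0.00441) and Stip1, Hsph1, Dnaja4, Dnajb1, Hsp90aa1 and Hsf1, the heat shock transcription factor itself.

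ER chaperones and ER stress genes were also mostly higher in the dark. Of 17 tested members 16 were higher in the dark and 11 had an unadjusted p under 0.05, with a median of 0.31. Hspa5 and Xbp1 passed. Pdia6, a disulfide isomerase, had a difference of 0.42 (adjusted p = 0.129), and Manf, a secreted protein that follows ER stress, one of 0.37 (adjusted p = 0.137). With 12 libraries 17 of 17 were higher and 8 passed, beside 1.23% of all genes called higher in that fit. The 8 were Hspa5, Xbp1, Pdia6, Pdia3, Sdf2l1, Hsp90b1, Calr and Manf. Sdf2l1, a cofactor of BiP, lay between 5.49 and 10.1 FPKM in the 5 light libraries of the 12 and between 8.93 and 18.2 in the 7 dark ones.

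Which light time point served as the reference set the size of these differences. Against ZT7 alone 24 of 30 chaperone genes and 14 of 17 ER genes were higher in the dark, with medians of 0.19 and 0.07. Against ZT11 alone 30 of 30 and 16 of 17 were, with medians of 0.46 and 0.54. From ZT7 to ZT11, 25 of 30 chaperone genes and 14 of 17 ER genes were lower, with medians of -0.31 and -0.44. The chaperone sum of ZT7 replicate 2, a set-apart library, was 3571 FPKM against 2150 and 2162 in its replicates, and its ER sum 1428 against 957 and 1008. The set-apart dark libraries were also above their replicates. Chaperone sums were 3629 FPKM in ZT15 replicate 3, against 2726 and 2505, and 3222 in ZT23 replicate 1, against 2293 and 2441. Their ER sums were 1519, against 1339 and 1185, and 1172, against 917 and 1058. With 12 libraries 28 of 30 and 16 of 17 were higher against ZT7 (0.26 and 0.19) and 30 of 30 and 16 of 17 against ZT11 (0.45 and 0.52), and from ZT7 to ZT11 25 of 30 and 15 of 17 were lower (-0.18 and -0.34). Without ZT11 in the fit, 0 of all genes passed, beside 555 at an unadjusted p under 0.05. Among the dark hours, the chaperone median was 0.40 at ZT15, 0.33 at ZT19 and 0.18 at ZT23, and the ER median 0.48, 0.38 and 0.14.

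**Figure D2:**
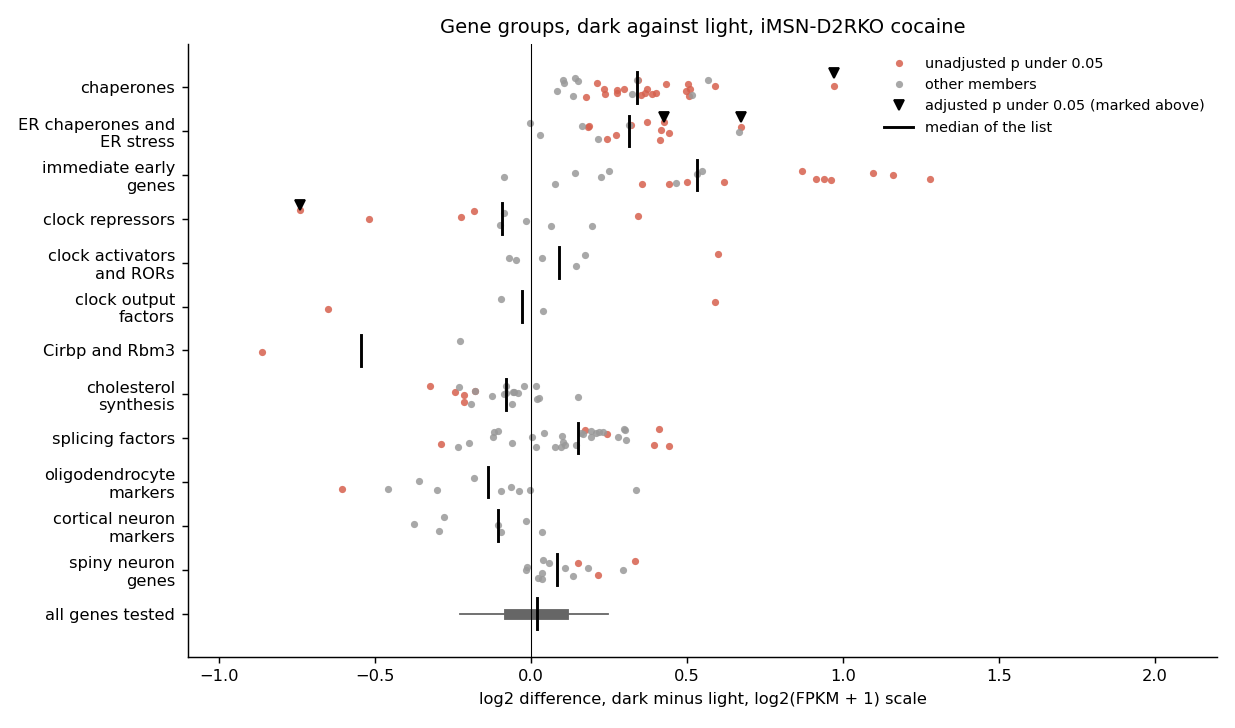
Log2 difference of each tested gene, dark minus light, on the log2(FPKM + 1) scale, for the gene lists described in the text. Points are genes, red at an unadjusted p under 0.05 and grey otherwise, triangles mark an adjusted p under 0.05, black bars are medians, and the grey box and line below span percentiles 25 to 75 and 5 to 95 of all genes tested. All 30 chaperone genes and 16 of 17 ER genes lie above 0, as do 18 of 19 immediate early genes, while 17 of 21 cholesterol synthesis genes lie below it.

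Immediate early genes were higher in the dark, though none passed the adjusted threshold. Of 19 members 18 had a difference above 0, 11 of them at an unadjusted p under 0.05, and the median was 0.53. Nr4a1, an orphan nuclear receptor (chr15:101254269-101274795, plus strand), lay at 41.8, 37.4 and 54.5 FPKM at ZT7 and at 48.8, 39.1 and 41.2 at ZT11. It was at 126, 69.1 and 65.9 at ZT15, at 101, 117 and 88.5 at ZT19 and at 62.0, 50.04 and 73.5 at ZT23. All libraries of ZT15 and ZT19 were above the light ones, and ZT23 overlapped (0.87 ± 0.15, SE, adjusted p = 0.0667). Nr4a3 lay between 2.84 and 6.06 FPKM in the light and between 4.66 and 15.9 in the dark (1.16 ± 0.21, SE, adjusted p = 0.0833). Egr2, a zinc finger factor, lay at 1.28, 3.46 and 3.21 FPKM at ZT7 and 1.48, 4.86 and 1.04 at ZT11. In the dark Egr2 was at 12.7, 4.755 and 4.91 at ZT15, 12.4, 14.2 and 9.09 at ZT19 and 3.14, 3.14 and 7.10 at ZT23. ZT15 replicate 2 and ZT23 replicates 1 and 2 thus lay inside the light range (1.28 ± 0.29 for the dark, SE, adjusted p = 0.135). For Fos and Arc the differences were 0.94 (adjusted p = 0.501) and 0.96. The list's median was 0.59 at ZT15, 1.12 at ZT19, where 19 of 19 were higher, and 0.19 at ZT23. Without the 3 set-apart libraries Nr4a1, Nr4a3 and Fosl2 passed, with adjusted p of 0.0352, 0.043 and 0.0334.

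Markers of cortical excitatory neurons varied with the time point. Their summed FPKM, over 7 genes of which none was at 0, lay between 24.8 and 88.5 at ZT7, between 138 and 263 at ZT11, between 5.34 and 48.7 at ZT15, between 171 and 199 at ZT19 and between 68.9 and 163 at ZT23. Slc17a7, the vesicular glutamate transporter of cortical neurons, was at 1.78 to 35.4 FPKM at ZT15 and at 139 to 150 at ZT19. The summed FPKM of the 19 immediate early genes lay between 412 and 506 at ZT7, 348 and 583 at ZT11, 555 and 940 at ZT15, 759 and 941 at ZT19 and 473 and 628 at ZT23. In order of time, the mean immediate early sums were 445, 462, 721, 878 and 561 FPKM and the mean cortical sums 53.9, 200.3, 31.4, 186 and 108. Both means were higher at ZT19 than at ZT7, while from ZT11 to ZT15 the immediate early mean rose and the cortical mean fell. The part of the cortical markers in the immediate early gene values was not tested. In tissue punches, fewer cells of a type and less RNA per cell cannot be told apart.

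**Figure D3:**
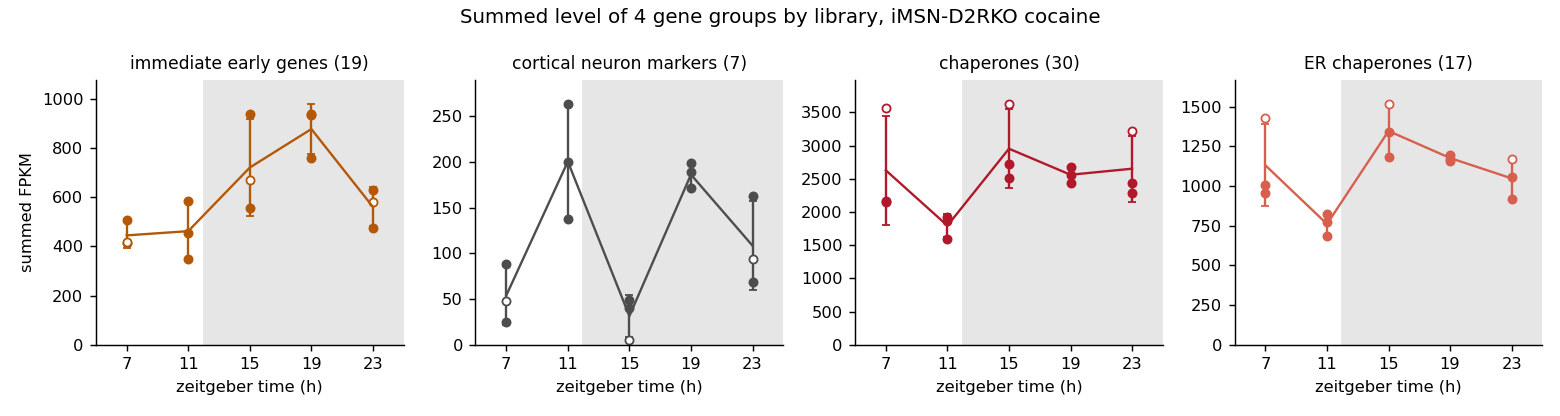
Summed FPKM of gene lists by library over zeitgeber time in hours, with dark hours shaded and the 3 set-apart libraries as open symbols. Lines join means with SD bars (n = 3). The mean chaperone and ER sums are lowest at ZT11 and highest at ZT15, the mean immediate early sum is highest at ZT19, and the cortical marker sum at most 48.7 in the 3 libraries of ZT15 and between 171 and 199 at ZT19.

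Clock genes, whose peaks lie at different hours, were mixed. Of 10 repressors 3 were higher and 7 lower in the dark, and Ciart passed. Nr1d1 (REV-ERBα, chr11:98767932-98775333, minus strand), which represses Arntl, lay between 57.0 and 86.3 FPKM in the light and between 38.9 and 67.3 in the dark, with 42.3, 38.9 and 43.1 at ZT19 (-0.52 ± 0.10, SE, adjusted p = 0.0943). Cry1 was at 12.3 to 16.4 FPKM in the light and 15.7 to 22.9 in the dark (0.34 ± 0.08, SE, adjusted p = 0.129). Per2 was at 18.2, 16.9 and 25.5 FPKM at ZT15 against 10.1 to 17.4 in the light, so that ZT15 replicate 2 lay inside the light range. Its difference was 0.61 ± 0.16 at ZT15 (SE, adjusted p = 0.279) and 0.20 over the dark (adjusted p = 0.793). Per3 had -0.23 (adjusted p = 0.394) and Bhlhe40 -0.18. The other 4 repressors, Per1, Cry2, Nr1d2 and Bhlhe41, lay between -0.10 and 0.06.

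None of the clock activators and ROR genes passed. Arntl (chr7:113207465-113314126, plus strand) was at 9.88, 14.4 and 10.03 FPKM at ZT7 and 9.10, 7.89 and 8.29 at ZT11, and at 13.9, 13.9 and 19.9 at ZT15, 13.5, 14.2 and 14.6 at ZT19 and 21.1, 13.2 and 14.97 at ZT23. ZT7 replicate 2 was the 1 light library within the dark range. The difference was 0.60 ± 0.12 (SE, adjusted p = 0.0982) with 15 libraries and 0.57 with 12 (adjusted p = 0.00441). Clock, Npas2, Rora and Rorb lay between -0.05 and 0.17. Among the output factors, the PAR bZIP factor Dbp lay between 106 and 183 FPKM in the light and between 65.9 and 140 in the dark (-0.65 ± 0.16, SE, adjusted p = 0.178). Nfil3, which binds the same sites as a repressor, lay between 2.14 and 3.21 and between 2.93 and 6.16 (0.59 ± 0.11, SE, adjusted p = 0.0935), and Tef and Hlf were at -0.09 and 0.04. With 12 libraries 6 of the 20 clock genes passed, beside 1.96% of all genes in that fit: Arntl and Nfil3 higher and Ciart, Nr1d1, Dbp and Per3 lower.

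**Figure D4:**
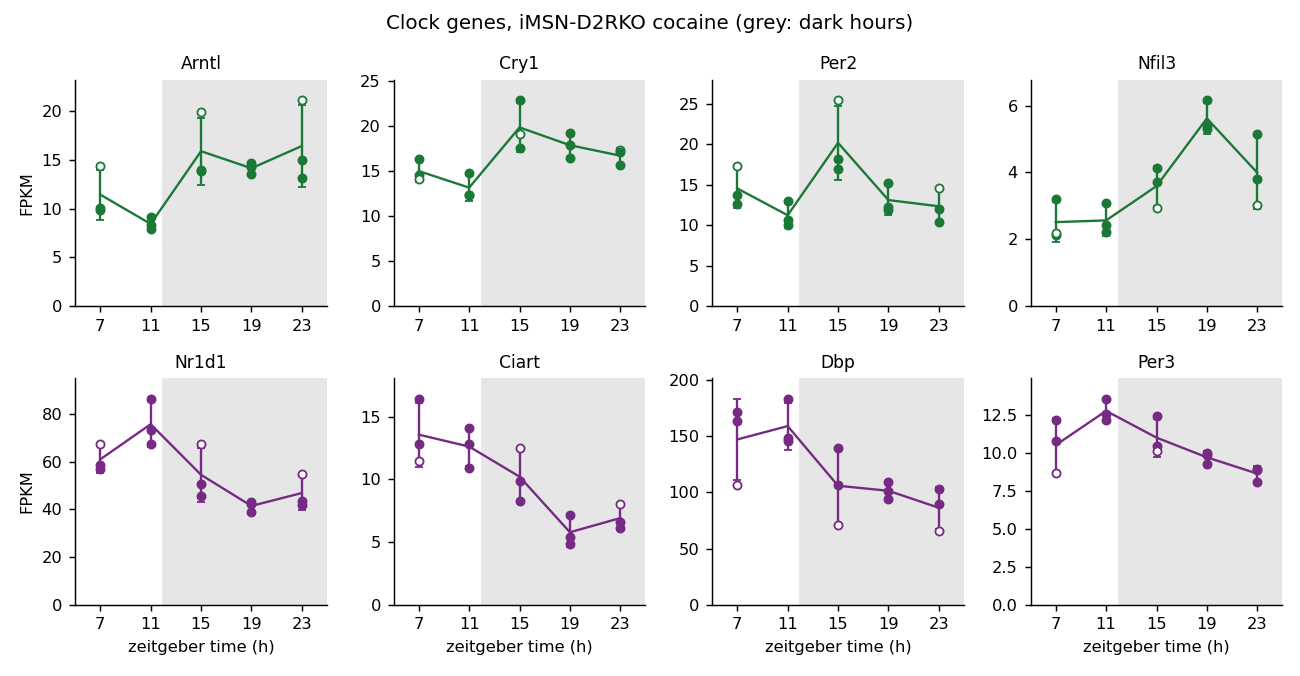
FPKM of clock genes by library over zeitgeber time in hours, with dark hours shaded, lines through the means of the time points, SD bars (n = 3) and the 3 set-apart libraries as open symbols. The means of Nr1d1 and Ciart are lowest at ZT19 and that of Dbp at ZT23, and Arntl is lowest at ZT11, where its 3 libraries lie between 7.89 and 9.10 FPKM.

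Some genes separated light from dark without a large difference. For 17 genes all 9 dark libraries were above all 6 light libraries (0.123% of genes), and for 11 all were below (0.0793%), 28 genes in all. Only 1500004A13Rik and Pfn4 of these passed the adjusted threshold. Dio2, the deiodinase that makes active thyroid hormone in glia, had means of 7.75 FPKM in the light and 10.4, 11.3 and 11.2 at the 3 dark time points. Srf, the serum response factor that drives immediate early genes, had a mean of 18.5 in the light and of 24.2, 24.7 and 23.5. Slc5a6, a vitamin transporter, went the other way, from 5.64 to 4.64, 4.54 and 3.85 (-0.31, adjusted p = 0.0956). Dio2 and Srf are named after their values were seen.

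Cirbp, the cold-inducible RNA-binding protein (chr10:80165985-80172786, plus strand), was at 83.8, 34.6 and 79.2 FPKM at ZT7 and at 104, 74.1 and 87.8 at ZT11. In the dark it was at 50.8, 45.1 and 26.6 at ZT15, 40.7, 37.9 and 40.9 at ZT19 and 25.02, 57.2 and 46.6 at ZT23. ZT7 replicate 2, with 34.6 FPKM, was the 1 light library within the dark range. The difference was -0.86 ± 0.23 (SE, adjusted p = 0.216) with 15 libraries and -0.86 with 12, where it passed (adjusted p = 0.00441). Rbm3, the other member of its list, had -0.23 and did not pass. Mt2, a metallothionein that glucocorticoids induce, had -0.61 with 15 libraries (adjusted p = 0.479) and -0.63 with 12 (adjusted p = 0.00706), and of the 14 glucocorticoid-induced genes 6 were higher and 8 lower.

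Genes of cholesterol synthesis were lower at ZT15. Of 21 members 20 were below the light mean there, with a median of -0.30, against 12 of 21 lower at ZT19 (-0.03) and 10 of 21 at ZT23 (0.00). Their summed FPKM lay between 309 and 319 at ZT15 and between 354 and 407 in the 12 libraries of the other time points. Over the dark as a whole 17 of 21 were lower and 5 had an unadjusted p under 0.05, none of which passed. They included Dhcr7, which catalyses a last step of the pathway (-0.21, adjusted p = 0.448), and Insig1, which retains SREBP in the ER (-0.21, adjusted p = 0.609, and -0.46 at ZT15). Without the 3 set-apart libraries all 21 were lower at ZT15, with a median of -0.26.

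SR and hnRNP splicing factors depended on the reference. Of 32 genes 25 were higher in the dark (median 0.15), but 11 of 32 against ZT7 alone and 27 of 32 against ZT11 alone. Tra2a, an activator of exon inclusion, came closest to the threshold (0.44, adjusted p = 0.0545). Srsf5 lay between 55.0 and 79.7 FPKM in the light and between 42.5 and 68.4 in the dark (-0.29, adjusted p = 0.354), and was 1 of the 7 lower members. Of 69 ribosomal protein genes 34 were higher and 35 lower, and of 79 genes of oxidative phosphorylation 39 and 40, with medians of -0.01 and 0.00. The counts varied by time point. At ZT19 48 of 69 ribosomal and 72 of 79 oxidative phosphorylation genes were higher than in the light (0.14 and 0.24), and at ZT23 49 and 60 were lower (-0.12 and -0.15). With 12 libraries 43 and 70 were higher at ZT19 (0.06 and 0.10) and 38 and 43 lower at ZT23 (-0.02 and -0.01). Proteasome genes numbered 24 higher and 12 lower of 36 (0.05). None of these 4 lists held a gene that passed with 15 libraries.

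Genes of the neurons themselves gave no call. Of the indirect pathway (6 tested), direct pathway (5) and shared spiny neuron genes (14), 5, 4 and 12 were higher, beside 55.7% of all genes. At an unadjusted p under 0.05, 2, 0 and 3 were higher, beside 4.57% of all genes. The medians were 0.14, 0.14 and 0.08. None of these genes passed, and neither did any of 14 neuropeptide, 12 GABA-A receptor, 22 glutamate receptor or 7 PPAR and RXR genes. Penk, the opioid peptide precursor of indirect pathway neurons, had 0.28 (adjusted p = 0.587). The peptide gene Cartpt had 0.78 (adjusted p = 0.614). Adora2a, the adenosine receptor of indirect pathway neurons, lay between 87.7 and 205 FPKM in the light and between 89.4 and 205 in the dark (0.03 ± 0.23, SE, adjusted p = 0.999). Gabrd, the extrasynaptic GABA-A subunit, lay between 51.2 and 107 and between 51.0 and 109 (0.02 ± 0.19, SE, adjusted p = 0.999), and the potassium channel gene Kcnd1 had -0.06. The study had picked Adora2a, Gabrd and Kcnd1 from genes that it found rhythmic in WT cocaine and not in these libraries. Their small differences here are thus no independent support. With 12 libraries no gene of these groups passed either.

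Markers of other cells gave no call with 15 libraries. Oligodendrocyte markers were lower for 9 of 10 genes (median -0.14), with summed FPKM of 2759 to 4189 in the light and 2319 to 4197 in the dark, and Opalin had the smallest p (-0.61, adjusted p = 0.123). Astrocyte markers numbered 4 higher and 6 lower of 10, microglia 4 and 6 of 10, endothelial and mural markers 3 and 7 of 10, interneuron markers 4 and 4 of 8 and oligodendrocyte precursors 1 and 3 of 4. Cldn5, the tight junction claudin of the endothelium, had 0.69 (adjusted p = 0.355) and passed with 12 libraries (0.82, adjusted p = 0.0315). In the 3 other series Cldn5 lay between -0.10 and 0.02. Of the listed markers, 5 of 8 of the hypothalamus and septum, 3 of 6 of the choroid plexus and ependyma and 1 of 5 of blood were tested, and the globin genes of the last were not matched to an entry of their own. ZT19 replicate 1 had the highest sum of choroid plexus markers, 68.5 FPKM against at most 11.3 in the other 14 libraries.

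By time point, 3 genes passed at ZT15 against the light (0.0216%), 4 at ZT19 (0.0288%) and 0 at ZT23 (0%, beside 678 at an unadjusted p under 0.05, limma). Those of ZT15 were Hspa1b, Hspa5 and Xbp1. Those of ZT19 were Hspa1b, Ciart, Pfn4 and Gpr3. Gpr3, a receptor that raises cAMP without a ligand (chr4:133209340-133212536, minus strand), lay at 2.36, 2.05 and 2.54 FPKM at ZT7 and 2.41, 2.40 and 3.24 at ZT11. It was at 5.48, 4.5004 and 4.11 at ZT15, 4.97, 6.14 and 8.38 at ZT19 and 2.302, 2.69 and 3.57 at ZT23, so that ZT23 overlapped with the light. Its difference was 1.08 at ZT19 (adjusted p = 0.0486) and 0.64 ± 0.11 over the dark (SE, adjusted p = 0.0667). Without the 3 set-apart libraries 29 genes passed at ZT15, 160 at ZT19 and 0 at ZT23.

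The same contrast was fitted in the 3 other series, which share no libraries with it. In the iMSN-D2RKO saline series, ZT7 replicate 1 stood apart with a total FPKM of 690048, against 407700 and 410697 in its replicates, and a median of 124 FPKM over the ribosomal protein genes, against 43.2 and 44.9. Values of that series are given with this library and, where they rest on it, again without it, which was chosen after seeing the data. In iMSN-D2RKO saline 0 genes passed (0%, 2422 at an unadjusted p under 0.05, and 0 and 2021 without that library), in WT cocaine 779 (5.61%) and in WT saline 34 (0.245%). The 10 genes had the same sign as here in all 3 series. Of the 10, 7 had an unadjusted p under 0.05 in iMSN-D2RKO saline, 9 in WT cocaine and 8 in WT saline. Slc7a5 passed in WT cocaine (-0.47 ± 0.10, SE, adjusted p = 0.0297), and Rbm28 in WT saline (0.44 ± 0.08, SE, adjusted p = 0.0441). Ciart had -0.70 ± 0.16 in iMSN-D2RKO saline, -0.37 ± 0.14 in WT cocaine and -0.27 ± 0.18 in WT saline (SE, n = 9 and 6 each), none of which passed. Without ZT7 replicate 1 of iMSN-D2RKO saline, all 10 genes still had the same sign there and 7 an unadjusted p under 0.05, and Ciart had -0.54 ± 0.11 (SE, n = 9 and 5). Of the 272 genes called with 12 libraries, 235, 250 and 233 had the same sign in iMSN-D2RKO saline (237 without that library), WT cocaine and WT saline.

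Among the gene groups, chaperones were higher in the dark for 27 of 30 genes in iMSN-D2RKO saline (median 0.30), 29 of 30 in WT cocaine (0.41) and 28 of 30 in WT saline (0.30). Immediate early genes had medians of 0.14, 0.73 and 0.13 in these series, beside 0.53 here, and without the library above iMSN-D2RKO saline had 28 of 30 chaperones higher (0.41) and an immediate early median of 0.04. In WT cocaine 9 of 19 immediate early genes passed, beside 5.61% of all genes. Cortical excitatory neuron markers had medians of -0.51 in iMSN-D2RKO saline, 0.39 in WT cocaine and 0.23 in WT saline, beside -0.11 here. In iMSN-D2RKO saline without the library above their median was -0.57. Their part in the immediate early gene values was not tested. For Nr4a1 the differences were -0.09 ± 0.17 in iMSN-D2RKO saline, 1.74 ± 0.25 in WT cocaine (adjusted p = 0.0197) and 0.38 ± 0.11 in WT saline (SE). Arc had -0.08 ± 0.29, 1.61 ± 0.27 (adjusted p = 0.0255) and 0.10 ± 0.19 in the same order. Ribosomal protein genes had medians of -0.33, -0.32 and -0.26 in this order of series and genes of oxidative phosphorylation -0.38, -0.32 and -0.20, beside -0.01 and 0.00 here, and -0.12 and -0.26 in iMSN-D2RKO saline without the library above. Libraries set apart on the leading axis without removing time point means (the projected score) all lay in the dark in the other series. Here they were ZT7 replicate 2 in the light and ZT15 replicate 3 and ZT23 replicate 1 in the dark. Medians over ribosomal protein genes were 31.2 to 37.3 FPKM in the former and 40.9, 35.7 and 30.5 in the latter. The part of these libraries in the list medians was not tested. The 2 lists were not tested as lists. These are values side by side, and only the differences from iMSN-D2RKO saline and from WT cocaine were tested, gene by gene.

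No gene's dark to light difference differed from that of iMSN-D2RKO saline or of WT cocaine at an adjusted p under 0.05. Differences from WT saline were not tested. Against iMSN-D2RKO saline 0 genes passed (0%, 648 at an unadjusted p under 0.05, limma on 60 libraries, and 361 without ZT7 replicate 1 of that series), and against WT cocaine 0 (0%, 291). Anxa3, Nr4a1, Rxrg, Coch and Zfp941 had the smallest p against iMSN-D2RKO saline, all with an adjusted p of 0.619. For Nr4a1 the difference of differences was 0.96 ± 0.26, and 0.89 ± 0.27 without that library (SE, adjusted p = 0.788). Against WT cocaine these were Kcns2, Pdss2, Tmem181b-ps, Nr4a1 and 2610507I01Rik, all with an adjusted p of 0.834, and Nr4a1 had -0.87 ± 0.26 (SE). Adora2a, Gabrd and Kcnd1 had been picked from genes that the study found rhythmic in WT cocaine and not here. Their contrast between these series is therefore no independent support. Adora2a and Gabrd, at 0.03 and 0.02 here, were at -0.63 and -0.56 in iMSN-D2RKO saline, -0.75 (adjusted p = 0.0398) and -0.72 (adjusted p = 0.0313) in WT cocaine and -0.37 and -0.33 in WT saline. The differences from WT cocaine were 0.78 ± 0.34 for Adora2a and 0.74 ± 0.30 for Gabrd (SE, both with an adjusted p of 0.834), and from iMSN-D2RKO saline 0.65 ± 0.34 and 0.58 ± 0.30 (SE, both with an adjusted p of 0.619), or 0.60 and 0.42 without that library (both with an adjusted p of 0.788). For Kcnd1 the latter was 0.08 (adjusted p = 0.853). The lowest Adora2a values here, 87.7, 89.4 and 103 FPKM, were those of the set-apart libraries, ZT7 replicate 2 in the light among them. In WT cocaine the libraries set apart by the projected score were ZT19 replicates 1 and 3 and ZT23 replicate 3, all in the dark. Without the 13 libraries of that score, the differences between series passed for neither Adora2a nor Gabrd, as with all libraries. No fit of WT cocaine alone without these libraries is given. The clock repressor Ciart differed from WT cocaine by -0.37 ± 0.22 (SE, adjusted p = 0.834). A test that passes no gene does not show that the series were alike.

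**Figure D5:**
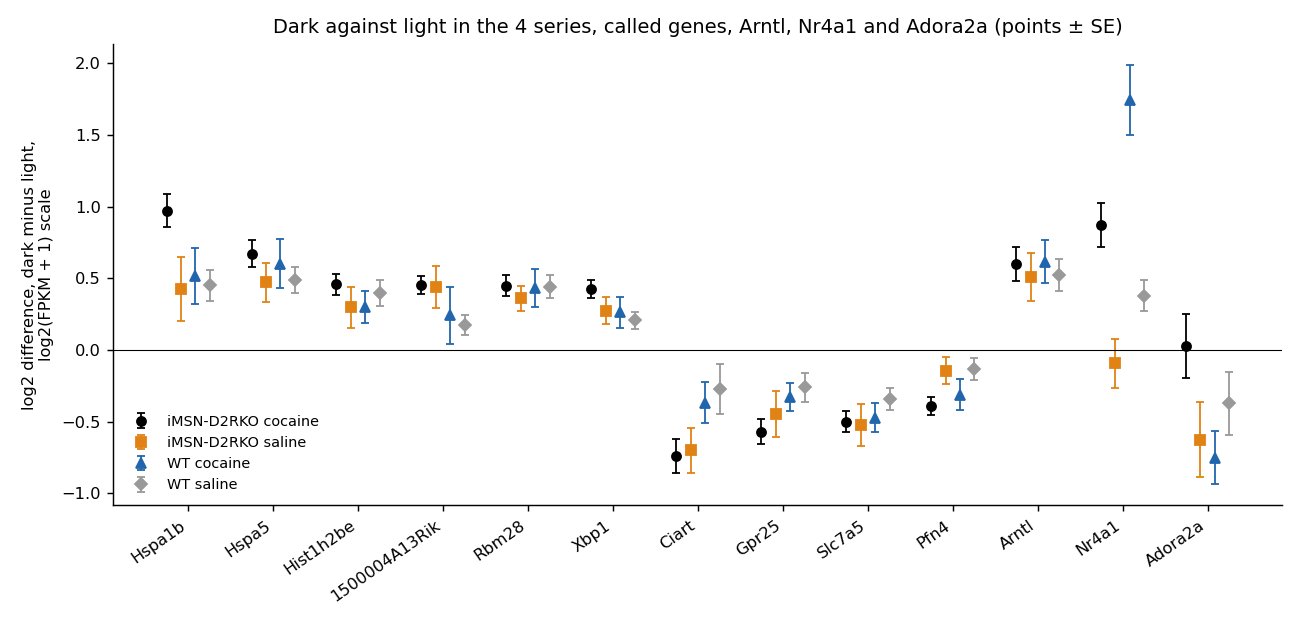
Log2 difference, dark minus light, on the log2(FPKM + 1) scale with its SE, in iMSN-D2RKO cocaine and in the 3 other series, for the 10 called genes and for Arntl, Nr4a1 and Adora2a. The 10 called genes have the same sign in all 4 series, while Nr4a1 lies at 0.87 and 1.74 in the cocaine series and at -0.09 and 0.38 in the saline series. Nr4a1 was among the genes with the smallest p in both differences between series and passed in neither.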

How the data were processed

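Stranded mRNA libraries selected with oligo(dT) were read from 1 end by the authors, who mapped the reads to mm10 with TopHat and Bowtie and estimated expression with Cufflinks and Cuffnorm. The deposited values are FPKM per gene, and CASAVA 1.8.2 is named in the submitters' processing notes. The table holds 72 columns for 66 libraries, since 6 libraries of ZT3 are listed a second time with identical values. 0 columns of per-sample values were left unmapped. Of the 24138 entries, 355 join several genes and were kept as entries.

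Genes with an FPKM of at least 1 in at least 1 of the 15 libraries were fitted on log2(FPKM + 1) with limma 3.58.1 in R 4.3.3, with a mean per time point, empirical Bayes moderation and a trend. The contrast of dark and light had 10 residual degrees of freedom, and p-values were Benjamini-Hochberg adjusted over 13877 genes with a threshold of 0.05. Differences from iMSN-D2RKO saline and from WT cocaine were contrasts in a fit of the 60 libraries after ZT3. The fit was tested on simulated data. The authors' rhythm test and removal of outlying replicates were not applied. Single measures were compared by exact permutation over 5005 relabellings of 9 and 6 libraries, whose smallest p is 0.0001998. Tables and figures were made with Python 3.11.15.

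Positions are of GRCm38 (mm10) from GENCODE, and promoters from RefSeq GRCm38.p6. Named were called genes and those with the smallest p of a contrast (5 per difference between series, 3 per time point) or list (up to 4) among genes with a mean FPKM of at least 5 at a time point, and clock genes, Drd2 and the candidate genes of the study. Hspa1b and Hist1h2be were called below that level. They and other genes named were chosen after their values were seen. The members, lists and tests were chosen with earlier results of these data known, so patterns of chaperone, immediate early and clock genes are no independent support. Alternatives covered the pseudocount, the filter, the scaling, a replicate block, each library and time point left out and the set-apart libraries. Sample-weighted fits did not converge and are not given.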

Additional observations from a re-analysis of the deposited data

Results flagged for a closer look

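Of 64 sets of values, each of the light or the dark libraries, 4 had 1 library far from the others, all in the light, by the gap to its neighbour as a share of the whole range, and chance alone gives such a gap in about 1 in 20 sets. All 4 were values of ZT7 replicate 2, 1 of the 3 set-apart libraries. Its Drd2 was highest at 229 FPKM, beside 129 in the next library. Arntl was highest at 14.4 FPKM, beside 10.03. The summed FPKM of the cytosolic and mitochondrial chaperones was highest at 3571, beside 2162. Mt2 was lowest at 135 FPKM, beside 297. Without this library 23 genes passed in the dark against the light instead of 10.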

How the results depend on the processing

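With 15 libraries 10 genes passed in the dark against the light. The number was 10 with a pseudocount of 0.1, 10 with a filter on the mean, 14 with median ratio scaling, 5 without a filter, 0 with a replicate block (904 at an unadjusted p under 0.05), 272 without the set-apart libraries, 1741 with the library score and 908 with the projected score as a covariate, 1 with 2 groups of 9 and 6, 151 with ZT3 added to the light and 37 with the spread of all 60 libraries. Both scores come from the residuals of these libraries, and the settings with the projected score were chosen after seeing the data. Without a whole time point it was 38 without ZT7, 0 without ZT11, 0 without ZT15, 0 without ZT19 (555, 795 and 1033 at an unadjusted p under 0.05) and 20 without ZT23. Leaving out 1 library gave 0 to 23, with 23 without ZT7 replicate 2, 9 without ZT15 replicate 3, 8 without ZT23 replicate 1 and 0 to 2 without each of the other 12. All 10 genes kept their sign in every one of these fits.

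At ZT15, where 3 genes passed, 1 passed with median ratio scaling, 0 with the replicate block (964 at an unadjusted p under 0.05), 29 without the set-apart libraries, 2714 with the score, 480 with the projected score and 0 to 4 without 1 library. At ZT19 (4 genes) it was 0 without a filter, 0 with the replicate block (1298 and 775 at an unadjusted p under 0.05), 160 without the set-apart libraries, 1507 with the score, 369 with the projected score and 0 to 6 without 1 library. At ZT23 (0 genes) it was 2237 with the score, 8 with the projected score and 0 to 1 without 1 library. For the differences between series (0 genes each), the score gave 2638 against iMSN-D2RKO saline and 1324 against WT cocaine, leaving out 1 library 0 to 0, leaving out ZT7 replicate 1 of iMSN-D2RKO saline 0 in both (361 and 404 at an unadjusted p under 0.05), and leaving out 13 libraries by the projected score 2 against WT cocaine, Akap7 (-0.63) and 2610507I01Rik (-2.45), both lower here.

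Whether replicate numbers pair the libraries was not settled by the correlations below, which spread widely with the same and with different numbers. Deviations of libraries with the same number had correlations between -0.746 and 0.651 over 30 pairs, 7 of them above 0.1, against 20 of 60 pairs with different numbers. Of 4306 values of single genes under the alternatives, 3807 kept their direction and side of the threshold, 145 newly passed and 185 no longer passed. The other 169, of 51 genes, changed sign and passed neither with 15 libraries nor under the alternative, and 0 that passed changed sign. Read numbers are unknown, so depth behind low FPKM, such as those of Hspa1b, could not be stated.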
